A study of Homo sapiens with 6 samples.

Results

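Cyclic nucleotide signaling was followed in the human glioblastoma cell line U373MG through 10 genes of 18417 measured. They are the anchoring protein gene AKAP5, the protein kinase A catalytic subunit gene PRKACB, and 8 cyclic nucleotide phosphodiesterase genes, namely PDE1C, PDE3A, PDE4B, PDE4D, PDE7A, PDE7B, PDE8A and PDE10A. They were found by gene symbol among the probes that carry 1 symbol, and each of the 10 is read by 1 probe. The genes were selected with their differences between compound and vehicle known, so those differences are given as a description and no test is attached to them. The study set out to find the pathways through which 3 tetrahydroisoquinoline alkaloids act on glioblastoma cells. Cells were exposed for 24 hours to ET-770 at 4.83 nM, to ET-770-DR, a pyridinecarbonyl derivative of ET-770, at 1.70 nM, or to renieramycin M (RM) at 3.10 nM. Cells given the vehicle, dimethyl sulfoxide (DMSO), for 24 hours served as the control of each compound in 3 separate experiments. The 6 samples were hybridized to 1 Human Gene 1.0 ST array each, and all of them come from the same cell line with no genetic change. The study chose each dose by its effect on cell viability, so doses differ between the compounds. Each compound was also run in its own experiment, with 1 array. Their values are therefore set side by side without a comparison between compounds.

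Cyclic AMP is made by adenylyl cyclases, binds the regulatory subunits of protein kinase A and so frees its catalytic subunits. Phosphodiesterases break down cyclic AMP, cyclic GMP or both and thereby limit where and how long the signal lasts. Anchoring proteins (AKAPs) hold protein kinase A, phosphatases and phosphodiesterases close to chosen substrates, and in the nervous system AKAP5 is known for gathering protein kinase A, protein kinase C and calcineurin at the cell membrane.

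Values are log2 signals after robust multiarray averaging (RMA), so 1 unit is a factor of 2, and a fold is the compound signal divided by that of the DMSO array of the same experiment. The median gene lay at 7.92 on the ET-770 array and 7.97 on its DMSO array, above the medians of 7.22 to 7.41 on the other 4 arrays, and levels are therefore compared within an experiment. Of 8 glioma and astrocyte markers, VIM, SOX2 and CD44 lay above the upper quartile of all genes on all 6 arrays, SLC1A3 on 3, NES and S100B on 2 each, and GFAP and AQP4 on none, with AQP4 under the lower quartile throughout. Of 7 markers of other cell types none lay above the upper quartile on any array. PTPRC, PECAM1 and MOG were under the lower quartile on all 6 arrays and RBFOX3 on 5, whereas SNAP25 (6.02 to 7.45), MBP (6.19 to 8.01) and COL1A1 (7.46 to 8.38) were under it on none. In these bulk samples, a smaller share of cells that express a gene and less of its RNA per cell cannot be told apart.

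The bases just before the start of 3 of the genes are shown, because AKAP5 was the gene with the highest signal relative to DMSO, PDE1C the one with the lowest, and PDE7B the only one of the 9 genes searched with a full cyclic AMP response element there. The sequences are from RefSeq (GRCh38.p14) and run 250 bases up to each start, with 9 of the 10 genes matched and PDE7A not analysed here. Capitals mark the full element TGACGTCA, its shorter core TGACG and the GC box GGGCGG, each sought on both strands, and a full element also counts as a core. AKAP5 lies on the plus strand at chr14:64465249-64465498, PDE1C on the minus strand at chr7:32428225-32428474 (the outermost of its 6 starts), and PDE7B on the plus strand at chr6:135851451-135851700.
AKAP5: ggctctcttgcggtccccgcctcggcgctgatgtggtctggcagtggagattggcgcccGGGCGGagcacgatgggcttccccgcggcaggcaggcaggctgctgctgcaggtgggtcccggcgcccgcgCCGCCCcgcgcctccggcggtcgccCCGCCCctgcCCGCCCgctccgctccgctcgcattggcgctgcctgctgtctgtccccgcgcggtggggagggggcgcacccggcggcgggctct
PDE1C: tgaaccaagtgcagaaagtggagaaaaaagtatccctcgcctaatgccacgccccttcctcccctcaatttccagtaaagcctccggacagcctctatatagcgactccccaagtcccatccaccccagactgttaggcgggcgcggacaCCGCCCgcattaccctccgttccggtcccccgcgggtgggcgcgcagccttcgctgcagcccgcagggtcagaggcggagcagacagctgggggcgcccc
PDE7B: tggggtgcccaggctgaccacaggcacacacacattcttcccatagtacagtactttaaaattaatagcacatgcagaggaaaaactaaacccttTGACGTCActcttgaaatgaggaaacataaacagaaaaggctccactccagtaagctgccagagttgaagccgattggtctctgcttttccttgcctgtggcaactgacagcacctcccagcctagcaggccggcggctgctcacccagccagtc
The PDE7B element spans bases 155 to 148 before the start. Among all 35116 promoter windows of this length, 1.65% held the full element, 21.2% the core and 42.6% a GC box. The AKAP5 window held 4 GC boxes and 78.8% G and C, against a median of 58% over all windows. The core was also found in 1 of 5 PRKACB windows and 1 of 8 PDE4D windows, and in none of the windows of AKAP5, PDE1C, PDE3A, PDE4B, PDE8A and PDE10A. Such matches describe letters and not bound sites.

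Following exposure to the compounds, AKAP5 was higher than with DMSO in all 3 experiments, and PDE1C, PDE8A, PDE4B and PRKACB were lower in all 3. The other 5 phosphodiesterase genes had mean log2 differences between -0.30 and -0.03. Compound and DMSO arrays did not overlap for 5 of the 10 genes, a state that 8.96% of all genes shared, and nothing is read from that count because the genes were selected on this contrast.

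AKAP5 had a log2 signal of 7.51 after ET-770, 7.75 after ET-770-DR and 6.91 after RM, against 5.23, 5.07 and 5.32 on the DMSO arrays of these experiments. The 3 compound arrays were all above the 3 DMSO arrays, and all 3 DMSO values were under the lower quartile of all genes. Relative to the array medians, AKAP5 lay at -0.41, 0.53 and -0.51 with ET-770, ET-770-DR and RM, against -2.75, -2.22 and -2.08 with DMSO, and the arms again did not overlap. The folds were 4.89 after ET-770, 6.42 after ET-770-DR and 3.00 after RM, a mean log2 difference of 2.19 ± 0.56 (SD, n = 3 experiments). Of all genes, 99.98% had a lower difference than AKAP5 after ET-770, 99.99% after ET-770-DR and 99.95% after RM. The part of the low DMSO level in these folds was not tested.

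PRKACB encodes a catalytic subunit of protein kinase A, the enzyme that AKAP5 anchors. Its log2 signal was 9.27 after ET-770, 8.34 after ET-770-DR and 8.89 after RM, against 10.31, 9.37 and 9.50 on their DMSO arrays. Every compound array was below every DMSO array, also relative to the array medians (1.12 to 1.47 with compound, against 2.09 to 2.34 with DMSO). The signal with compound was 0.486, 0.488 and 0.656 of that with DMSO, a mean log2 difference of -0.89 ± 0.25.

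**Figure D1:**
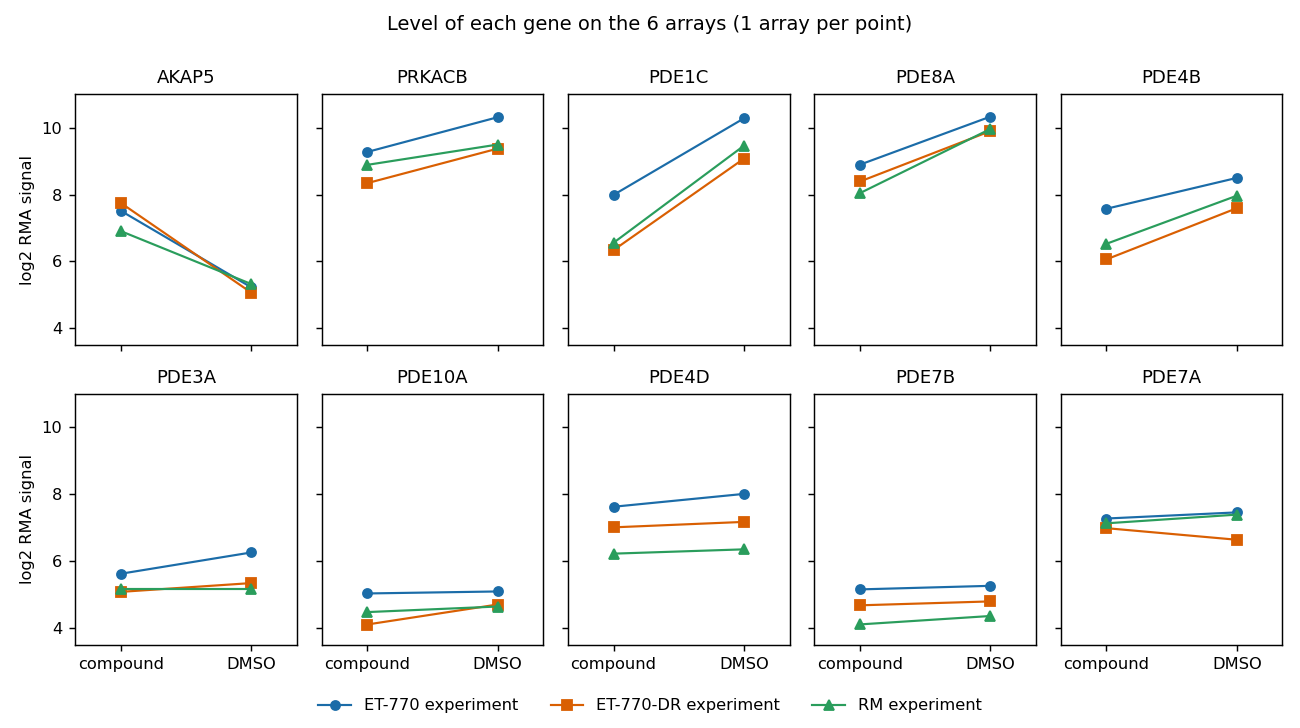
Log2 RMA signal (vertical axis) of each of the 10 genes on the compound array (left) and the DMSO array (right) of each experiment, with 1 array per point and a line joining the arrays of 1 experiment. The AKAP5 lines slope to lower values at DMSO, and those of PDE1C, PDE8A, PDE4B and PRKACB to higher values at DMSO, in all 3 experiments.

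PDE1C, whose enzyme is stimulated by calcium and calmodulin and breaks down both cyclic AMP and cyclic GMP, showed the largest difference below DMSO of the 10 genes. Its log2 signal was 7.99 after ET-770, 6.34 after ET-770-DR and 6.56 after RM, against 10.28, 9.08 and 9.46 on their DMSO arrays. All 3 compound arrays were more than 1 log2 unit below the lowest DMSO array. The folds were 0.204, 0.150 and 0.133, with a mean log2 difference of -2.65 ± 0.32 (SD, n = 3).

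PDE8A encodes a high-affinity enzyme specific for cyclic AMP. It had log2 signals of 8.89 after ET-770, 8.39 after ET-770-DR and 8.04 after RM, against 10.33, 9.90 and 9.96 with DMSO. The highest compound array was well below the lowest DMSO array. Folds of 0.369, 0.351 and 0.264 gave a mean log2 difference of -1.62 ± 0.26.

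PDE4B and PDE4D encode members of the cyclic AMP-specific subfamily that rolipram inhibits, and they differed in these arrays. PDE4B had log2 signals of 7.57 after ET-770, 6.06 after ET-770-DR and 6.53 after RM, against 8.50, 7.59 and 7.96 with DMSO. Each compound array of PDE4B was below its own control, and relative to the array medians the compound arrays lay at -1.16 to -0.35, against 0.31 to 0.56 with DMSO. The folds of PDE4B were 0.527, 0.346 and 0.369, a mean log2 difference of -1.30 ± 0.33. PDE4D, in contrast, read 7.62, 7.01 and 6.22 with ET-770, ET-770-DR and RM, against 8.01, 7.17 and 6.35 with DMSO. PDE4D varied between experiments, with a range of 1.09 over the DMSO arrays relative to their medians, and its mean log2 difference was -0.23 ± 0.14, lower in 3 of 3 experiments. Without the ET-770 experiment that mean was -0.15.

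PDE7A and PDE7B encode cyclic AMP-specific enzymes. PDE7A read 7.27, 6.98 and 7.13 with ET-770, ET-770-DR and RM, against 7.45, 6.64 and 7.39 with DMSO. PDE7A was higher than its control with ET-770-DR and lower with RM and ET-770. The mean log2 difference, -0.03 ± 0.33, was smaller than its spread. Without the ET-770 experiment that mean was 0.04, without the ET-770-DR experiment -0.22 and without the RM experiment 0.08, and quantile normalization turned it to 0.04. PDE7B read 5.15, 4.67 and 4.10 with the compounds in the same order, against 5.26, 4.79 and 4.35 with DMSO, a mean log2 difference of -0.16 ± 0.08.

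PDE3A, whose enzyme is inhibited by cyclic GMP, read 5.62, 5.08 and 5.17 with ET-770, ET-770-DR and RM, against 6.25, 5.34 and 5.17 with DMSO. The RM value and that of its control were identical, as they were for 237 genes in all. PDE10A, a dual-specificity enzyme known for its abundance in the striatum, read 5.03, 4.10 and 4.47 with the compounds, against 5.09, 4.70 and 4.64 with DMSO. The mean log2 differences were -0.30 ± 0.32 for PDE3A and -0.28 ± 0.28 for PDE10A, neither larger than its SD. Without the ET-770 experiment the mean of PDE3A was -0.13, and without the ET-770-DR experiment that of PDE10A was -0.11. PDE3A, PDE7B and PDE10A lay under the lower quartile of all genes on all 6 arrays. The part of this low level in their small differences was not tested.

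The study's limits for substantial change were a difference of more than 3-fold up or down. With ET-770, AKAP5 passed the upper limit, which 0.233% of all genes did, and PDE1C the lower one, which 2.15% did. The same genes passed with ET-770-DR, where 0.51% of all genes were over and 2.12% under the limits. With RM, PDE1C and PDE8A passed the lower limit, as did 1.36% of all genes, and none of the 10 passed the upper one, as 0.0434% of all genes did. Just short of the limits were AKAP5 with RM at 2.997-fold, PDE4B and PDE8A with ET-770-DR at 0.346 and 0.351, PDE8A with ET-770 at 0.369 and PDE4B with RM at 0.369. Just past the lower limit was PDE8A with RM at 0.264. Against the mean of the 3 DMSO arrays, AKAP5 with RM stood at 3.25-fold, PDE4B with ET-770-DR at 0.257 and PDE8A with ET-770-DR at 0.313, past the limits. That mean includes the ET-770 DMSO array with its higher median of 7.97, so these folds also hold differences in array level. After quantile normalization the same 3 folds against the mean DMSO array were 3.57, 0.322 and 0.369, the last no longer past the limit. PDE8A with ET-770 then passed it at 0.324. Against the DMSO array of its own experiment, quantile normalization gave 2.63 for AKAP5 with RM. In the same way PDE4B and PDE8A with ET-770-DR stood at 0.355 and 0.334, so none of these 3 passed the limits.

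**Figure D2:**
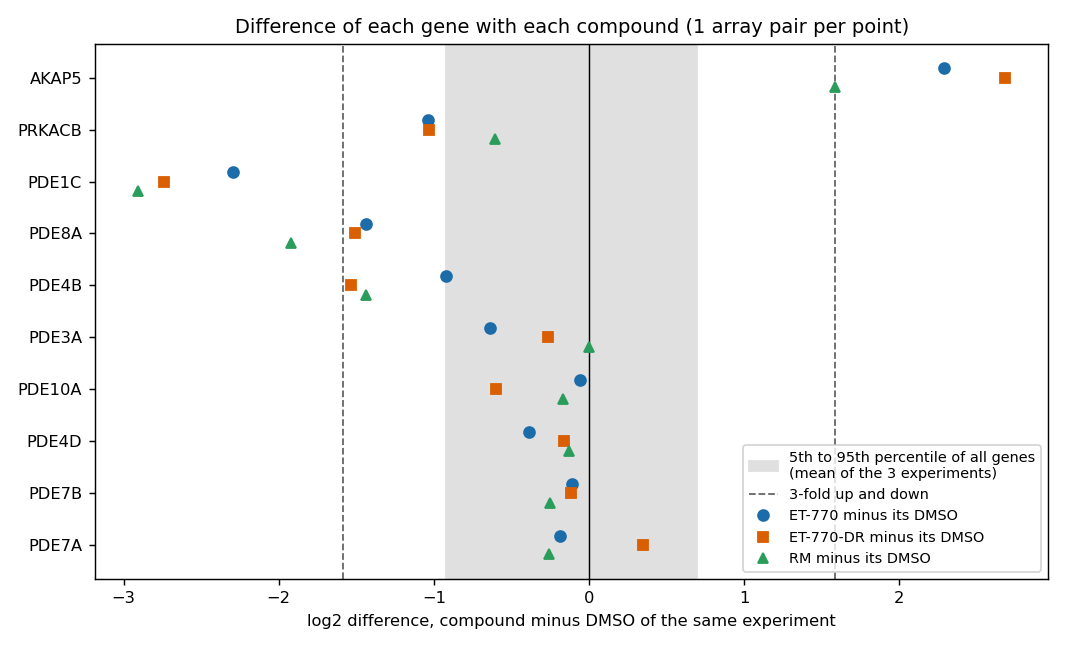
Log2 difference (horizontal axis) of each of the 10 genes with each compound, taken against its own DMSO array, 1 array pair per point. The grey band holds the 5th to 95th percentile of the mean difference of all genes (-0.92 to 0.69), and the dashed lines mark 3-fold up and down. AKAP5 is the one gene to the right of the band and PDE1C the one left of the dashed line with all 3 compounds.

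Apart from the readout, the genes differ in how much of the genome they span (RefSeq, GRCh38.p14; a span was found for 18388 of the 18417 genes). AKAP5 spans 9.01 kb, whereas the other 9 genes all span over 100 kb, with PDE7A the shortest of them at 128 kb and PDE4D the longest at 1553 kb. Among the 3119 genes over 100 kb, 47.7% were lower and 0.55% higher with the compounds in the limma fit over all genes (Benjamini-Hochberg adjusted p under 0.05), against 1.14% lower and 15.8% higher among the 5245 genes under 10 kb. Over all 18417 genes that fit called 13.1% higher and 11.2% lower. Within the genes over 100 kb, 64.3% of the 2189 whose mean level was above the lowest 25% of genes were called lower, and 8.60% of the 930 within that lowest 25%. The part of gene span and of level in the differences of the 10 genes was not tested.

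Among the 9 long genes, PDE4D at 1553 kb had a mean log2 difference of -0.23, PDE1C at 811 kb -2.65, PDE8A at 159 kb -1.62 and PRKACB at 160 kb -0.89. Set among the genes over 100 kb, 1.28% had a lower mean difference than PDE1C, 9.27% than PDE8A, 15.3% than PDE4B and 27.1% than PRKACB. PDE3A, PDE10A, PDE4D and PDE7B stood between 54.6% and 64.9% by the same measure, and PDE7A at 78.8%. The median difference of genes over 100 kb was -0.38, and that of all genes 0.03.

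**Figure D3:**
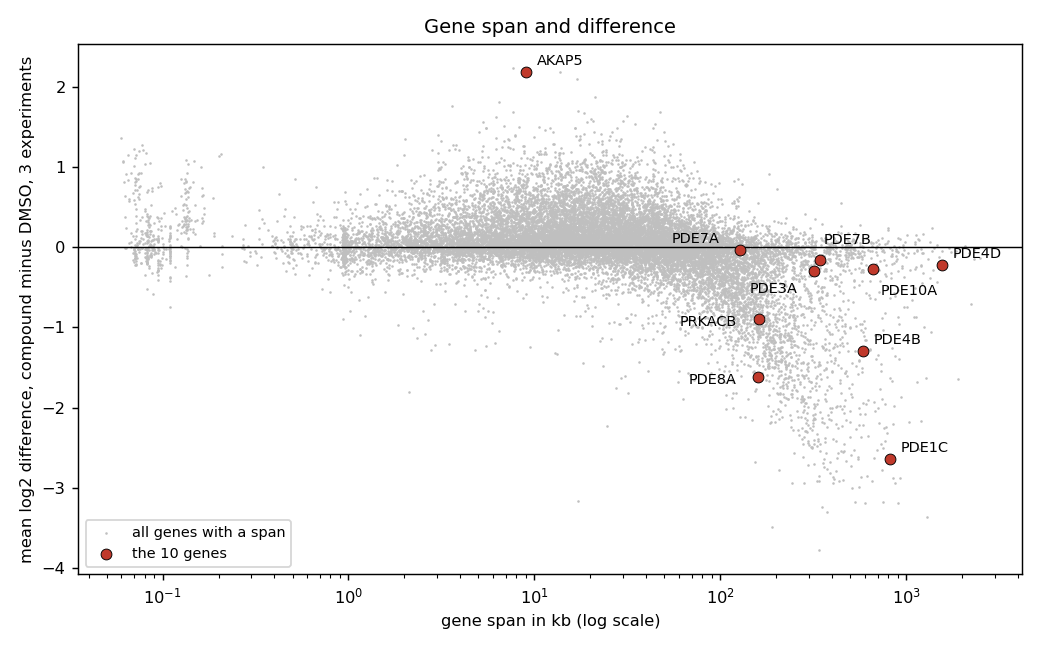
Gene span in kb (horizontal log axis) and mean log2 difference over the 3 experiments (vertical axis) for all genes with a span (grey) and the 10 genes (red). AKAP5, at 9.01 kb, lies at the upper edge, and the 9 genes over 100 kb reach down to PDE1C at -2.65.

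The genes whose pattern over the 6 arrays was most like that of AKAP5, each array centred on its median, were ZNF649 (Pearson r = 0.998), THSD1 (0.998) and MRPS25 (0.997), out of 7219 genes that spanned at least 1 log2 unit. For PDE1C they were SPTBN1 (0.999), PLPP1 (0.995) and EPAS1 (0.995). All 6 correlations rest on the same 3 pairs of arrays, which differ by arm, and carry no test. The difference between the arms was smaller in each of these genes than in AKAP5 or PDE1C, with log2 differences of 0.90 to 1.51 for ZNF649 and of -1.43 to -1.14 for SPTBN1.

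Other genes of the pathway were taken from 11 lists that hold none of the 10 genes, with 108 of 118 listed genes measured and the rest not analysed here. The lists were chosen with earlier results of these data known. Their counts and p-values are therefore a description and no independent test. For these the compound and DMSO arrays were compared with limma, the experiment as a block and the 3 compounds as replicates of each other. In that fit 14 were higher (13.0%) and 18 lower (16.7%), beside 13.1% and 11.2% of all genes. The median log2 difference was -0.06, against 0.03 for all genes. Without the block no list gene was called higher by limma (2 at an unadjusted p under 0.05) and 5 were called lower. Without the ET-770 experiment 4 were higher, and without the ET-770-DR experiment 6. The shares of all genes called in these other fits are not given here, so these counts say nothing particular to the list genes. Of the 23 list genes named for their size of difference, 18 were not called without the block, and AKAP13, AKAP6, PRKCA, PPP3CA and DLG1 were. Of the 41 list genes over 100 kb, 14 were lower and 0 higher (1 at an unadjusted p under 0.05). Of all genes over 100 kb, 47.7% were lower and 0.55% higher. Of the 67 list genes under 100 kb, 4 were lower and 14 higher. Among all genes, 1.14% of those under 10 kb and 5.12% of those from 10 to 100 kb were lower, and 15.8% and 15.6% higher. Nothing is read from these list counts.

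Among the 15 other phosphodiesterase genes, limma called none higher (all genes 13.1%) and 1 lower (6.67%, all genes 11.2%). At an unadjusted p under 0.05 the counts were also 0 and 1, and the median log2 difference was -0.09. The 1 gene called was PDE6D, which encodes a carrier of prenylated proteins rather than a catalytic subunit. Its log2 signals were 9.82, 8.80 and 8.69 with ET-770, ET-770-DR and RM, against 10.33, 9.22 and 8.99 with DMSO (log2 difference -0.41, SE 0.12, adjusted p = 0.036). That call was lost without the ET-770 experiment (adjusted p = 0.41) and without the ET-770-DR experiment (adjusted p = 0.10). Of these 15 genes, 5 span over 100 kb and 7 lay under the lower quartile of all genes on all 6 arrays.

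The other anchoring protein genes divided, with 4 of 15 higher (26.7%, all genes 13.1%) and 3 lower (20%, all genes 11.2%). The 3 that fell had the largest differences. Each of these 3 spans over 100 kb, and 47.7% of all genes over 100 kb were lower. AKAP13 had log2 signals of 7.06, 6.07 and 7.61 with ET-770, ET-770-DR and RM, against 9.16, 8.32 and 9.01 with DMSO (difference -1.92, SE 0.17, adjusted p = 5.8e-05). AKAP6, known from the nuclear envelope of muscle cells, had 6.80, 5.97 and 5.96 with the compounds, against 8.77, 7.65 and 7.90 with DMSO (-1.86, SE 0.13, adjusted p = 1.4e-05). AKAP9, a protein of the centrosome and Golgi, fell less (-0.999, SE 0.13, adjusted p = 0.00046). No compound array of AKAP13, AKAP6 or AKAP9 reached a DMSO array. The 4 genes that rose did so by 0.45 to 0.64, below the 2.19 of AKAP5, and a test of that difference was not made.

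Of the 10 other protein kinase A subunit and inhibitor genes, 3 were lower (30%, all genes 11.2%) and none higher (all genes 13.1%) in the limma fit. All 3 span over 100 kb, and 47.7% of all genes of that span were lower. The counts were the same at an unadjusted p under 0.05. The regulatory subunit genes PRKAR2B (log2 difference -0.86, SE 0.15, adjusted p = 0.0024) and PRKAR2A (-0.67, SE 0.12, adjusted p = 0.0036) fell alongside PRKX, a related catalytic kinase (-0.45, SE 0.13, adjusted p = 0.033). The uncentred levels of PRKAR2B overlapped between the arms, from 7.23 to 9.16 with compound and from 8.27 to 9.64 with DMSO, and it was lower within each of the 3 experiments. PRKX was not called without the ET-770 experiment (adjusted p = 0.15) or without the ET-770-DR experiment (adjusted p = 0.19).

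Of the 10 adenylyl cyclase genes 2 were lower (20%, all genes 11.2%), ADCY9 (log2 difference -0.86, SE 0.12, adjusted p = 0.00077) and ADCY3 (-0.40, SE 0.12, adjusted p = 0.041). Both genes span over 100 kb, and 47.7% of all genes over 100 kb were lower. ADCY3 lost its call without the ET-770 experiment (adjusted p = 0.24) and without the ET-770-DR experiment (adjusted p = 0.17). None of the 7 G protein alpha subunit genes and none of the 9 cyclic GMP genes was called by limma (all genes 13.1% higher and 11.2% lower). At an unadjusted p under 0.05 the G protein list had 1 lower and the cyclic GMP list 1 higher. Among 11 receptor genes that raise cyclic AMP, 2 were higher (18.2%, all genes 13.1%) and 2 lower (18.2%, all genes 11.2%). The prostaglandin receptor gene PTGER4 rose (0.65, SE 0.14, adjusted p = 0.0069), but not past the threshold without the ET-770 experiment (adjusted p = 0.065). The adenosine receptor gene ADORA2B fell (-0.84, SE 0.14, adjusted p = 0.0024), as did CALCRL, the receptor gene for adrenomedullin and related peptides (-0.59, SE 0.12, adjusted p = 0.0073). ADORA2B and CALCRL also span over 100 kb.

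Downstream, 3 of 7 further effector genes were called, 1 higher (14.3%, all genes 13.1%) and 2 lower (28.6%, all genes 11.2%). POPDC1 and POPDC3, whose membrane proteins bind cyclic AMP, fell by 0.48 and 0.42 on the log2 scale (adjusted p = 0.022 and 0.048), and the channel gene HCN3 rose by 0.46 (adjusted p = 0.021). All 3 missed the threshold without the ET-770 experiment (adjusted p = 0.11, 0.11 and 0.15 for POPDC1, POPDC3 and HCN3), POPDC3 and HCN3 also without the ET-770-DR experiment (0.12 and 0.052), and POPDC3 without the RM experiment (0.085). Of 7 genes for CREB, the factor that protein kinase A phosphorylates, and its partners, the coactivator gene CRTC2 (0.55, SE 0.12, adjusted p = 0.0085) and CREM (0.54, SE 0.16, adjusted p = 0.031) rose. These 2 were 28.6% of the list, beside 13.1% of all genes called higher. CRTC2 was not called without the ET-770 experiment (adjusted p = 0.09), nor was CREM (0.068), and CREM was not called without the ET-770-DR experiment (0.20) or after quantile normalization (0.06).

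Genes known as targets of CREB were higher in 5 of 10 cases (50%, all genes 13.1%) and lower in 1 (10%, all genes 11.2%). Their median log2 difference was 0.40. NR4A2, a nuclear receptor gene, had log2 signals of 9.61, 8.88 and 6.91 with ET-770, ET-770-DR and RM, against 7.79, 7.01 and 6.10 with DMSO (difference 1.50, SE 0.20, adjusted p = 0.0006). DUSP1, a phosphatase gene of the MAP kinase pathway, had 11.26, 10.55 and 10.53 with the compounds, against 10.28, 9.45 and 9.68 with DMSO (0.98, SE 0.12, adjusted p = 0.00045). In uncentred levels NR4A2 overlapped between the arms and DUSP1 did not, and both were higher in 3 of 3 experiments. RGS2, a regulator of G protein signaling, rose by 0.81 (SE 0.22, adjusted p = 0.022) with a range of 0.04 to 1.34 between experiments, and was not called without the ET-770-DR experiment (adjusted p = 0.087) or after quantile normalization (0.056). These genes respond to several other pathways as well.

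Of 7 genes whose proteins AKAP5 binds, 4 were lower (57.1%, all genes 11.2%, genes over 100 kb 47.7%) and none higher (all genes 13.1%) in the limma fit. The counts were the same at an unadjusted p under 0.05, and the median log2 difference was -0.55. PRKCA, a protein kinase C gene, had log2 signals of 7.07, 6.46 and 6.60 with ET-770, ET-770-DR and RM, against 10.27, 9.65 and 9.21 with DMSO (difference -3.00, SE 0.15, adjusted p = 6.1e-06). PPP3CA, a catalytic subunit gene of calcineurin, had 7.21, 7.12 and 8.03 with the compounds, against 9.55, 9.63 and 9.59 with DMSO (-2.14, SE 0.18, adjusted p = 4.5e-05). DLG1, a membrane scaffold gene, had 8.93, 9.29 and 9.16 with the compounds, against 11.04, 10.90 and 11.06 with DMSO (-1.88, SE 0.14, adjusted p = 2.1e-05). For these 3 genes the compound arrays were all more than 1 log2 unit below the DMSO arrays, and each gene spans over 100 kb (PRKCA 508 kb, PPP3CA 324 kb and DLG1 257 kb).

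**Figure D4:**
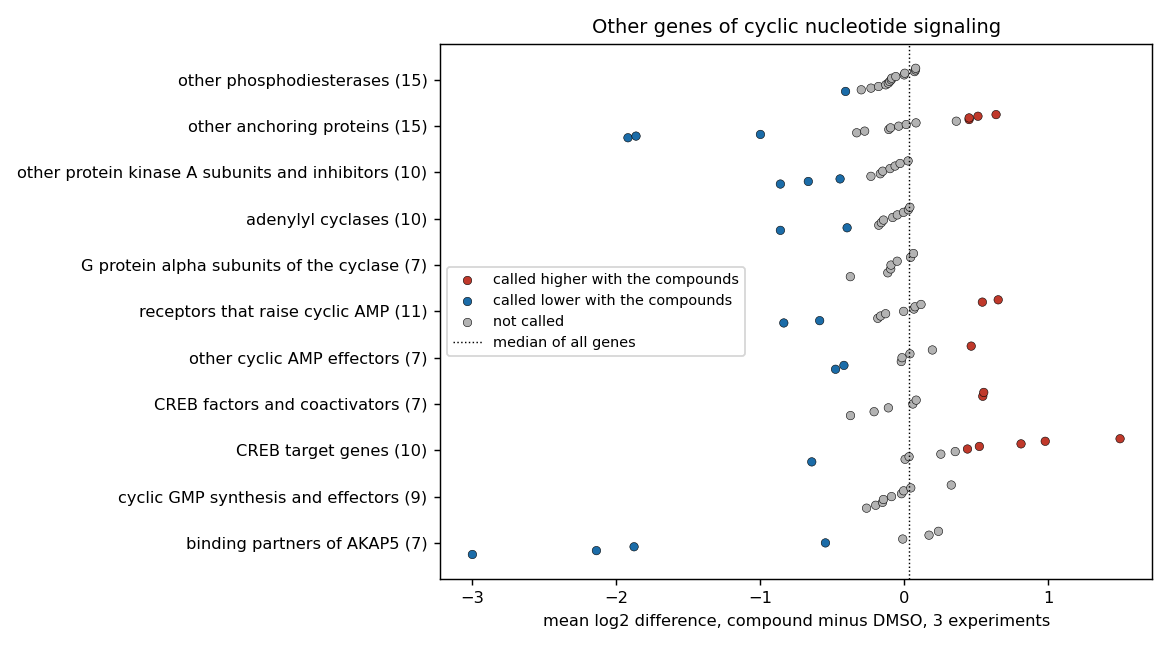
Mean log2 difference over the 3 experiments (horizontal axis) of each measured gene in the 11 lists, with the number of genes in parentheses. Red points were called higher and blue points lower with the compounds by limma, and the dotted line is the median of all genes (0.03). The lowest points are PRKCA, PPP3CA, AKAP13, DLG1 and AKAP6, and the highest is NR4A2.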

How the data were processed

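The 6 samples were hybridized to Human Gene 1.0 ST arrays, and the authors normalized the scans by RMA in Affymetrix Expression Console, so the deposited values are log2 signals; whether all arrays were normalized together, and the versions, are not given in the sources used here. Of 33297 probes, 19460 carried 1 gene symbol and were averaged to 18417 genes; the 1754 that list more symbols and the 12083 that list none were left out. The members and all lists were chosen with earlier results of these data known. For the 10 genes each compound array was set against the DMSO array that the labels name for its experiment. The other pathway genes were tested with limma 3.58.1 in R 4.3.3 (experiment block, eBayes, two-sided, Benjamini-Hochberg over all genes, threshold 0.05). The fit was also run on simulated arrays in which a changed gene had the same change in all 3 experiments. That run is no check of the p-values given here. With 1 array per compound, p-values rest on the spread between the 3 experiments and treat the compounds as replicates. In eBayes the variance of each gene is drawn towards a value shared by all genes. The SE and p-value of a gene are therefore not set by its own spread alone. The pairing comes from the labels, and the arrays of 1 experiment deviated together from the arm means (correlation across genes 0.83 in the ET-770 experiment, 0.69 with ET-770-DR and 0.82 with RM). All 10 genes were named, with the 3 largest called differences in each list and the 3 genes most like AKAP5 and PDE1C. Alternatives were quantile normalization, median centring, no block, an intensity trend, a filter on the lowest 25% of genes, the brightest probe, pooled DMSO arrays, a 2-fold limit and leaving out each experiment. The number of arrays limits the precision.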

Additional observations from a re-analysis of the deposited data

Results flagged for a closer look

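PDE7A differed from its control in opposite directions in different experiments. Its log2 difference from DMSO was 0.35 with ET-770-DR, but -0.18 with ET-770 and -0.26 with RM. Relative to the array medians, PDE7A lay at -0.65, -0.24 and -0.29 with ET-770, ET-770-DR and RM, against -0.52, -0.65 and -0.01 with DMSO. The range was 0.63 over the DMSO arrays and 0.41 over the compound arrays. Each value comes from 1 pair of arrays, and the difference between the compounds was not tested.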

How the results depend on the processing

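The numbers of list genes called higher and lower, 14 and 18, were within 1.5 times of that after quantile normalization, median centring, an intensity trend, the filter on low genes and the brightest probe alone. Without the block for the experiment, they were 0 and 5. Leaving out 1 experiment gave 4 to 17 higher and 12 to 21 lower. The shares of all genes in these settings are not given here, so nothing particular to the list genes is read from these counts. Of the 23 list genes named, 18 were no longer called without the block, and none changed sign under any setting. Median centring ended the calls of ADCY3 (adjusted p = 0.056) and POPDC3 (0.072), and quantile normalization those of CREM (0.06) and RGS2 (0.056). The number of the 10 genes more than 3-fold lower with ET-770 was 1, but 2 against the mean of the 3 DMSO arrays after quantile normalization and 3 at a limit of 2-fold. With ET-770-DR it was 1, but 3 against the mean DMSO array, 2 against it after quantile normalization and 4 at 2-fold. With RM no gene was over 3-fold, but 1 was against the mean DMSO array, with or without quantile normalization, and 1 at 2-fold. The cause of these changes was not tested, apart from the looser limit itself. The mean differences of the 10 genes moved by less than their SD after quantile normalization and after median centring. Leaving out 1 of 3 experiments cannot move a mean by as much as its SD. The brightest probe cannot change a gene read by 1 probe, so those settings are no check of this. PDE7A changed sign among values near 0. With 3 experiments and 1 array per arm, no value of a single compound has a replicate.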
